A study of Rattus norvegicus with 9 samples.

Results

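Transcripts that mark natural killer cells and T cells were followed in rat uterus through 10 genes: the cytotoxic granule genes Prf1, Gzmb, Gzmm and Nkg7, the receptor genes Klrd1, Cd3g and Cd8a, the cytokine receptor genes Il2rb and Il2rg, and the chemokine gene Ccl5. Members were found by their gene symbol in the platform annotation, which gave 14 probe sets, 13 of them with 1 symbol, among 31042 probe sets without controls. Of the 10 genes, 6 were bright enough to be tested, among 10973 genes tested in all. By their brightest probe sets, Gzmb, Nkg7, Klrd1 and Cd3g were near background on all but 2 arrays each, while the other 6 reached the filter level on 5 to 9 arrays. The highest value of each of these probe sets came from 1 array, model 22.

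The study measured RNA from the uterus of female rats with 9 Affymetrix arrays, 1 per sample. Treatment rats (arrays 31, 32 and 33) had electroacupuncture at 2 points, Guanyuan and Sanyinjiao, in sessions of 15 min over 7 days, and then ovulation induction while acupuncture went on. Model rats (arrays 21, 22 and 23) received the induction alone, which was PMSG (pregnant mare serum gonadotropin) at 0.5 U for each rat and, 48 h later, human chorionic gonadotropin in the same amount. Control rats (arrays 41, 42 and 43) were untreated. The labels describe 18 rats in groups of 6, so not every rat had an array of its own here, and they do not say whether an array held 1 animal or a pool. The labels name no strain, age or cycle stage.

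Natural killer cells and cytotoxic T cells kill target cells by releasing granules that hold perforin and granzymes. Perforin opens pores in the target membrane, and granzymes are proteases that enter through them. T cells recognise antigen through a receptor that signals by the CD3 chains, with CD8 as co-receptor of the cytotoxic class. Natural killer cells lack that receptor and depend on the cytokine IL15, whose receptor shares a beta and a gamma chain with that of IL2. In the uterus, natural killer cells are the main lymphocytes of the decidualizing endometrium, where they take part in remodelling of maternal arteries.

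The values were deposited normalized intensities on a linear scale, with array medians of 23.5 to 23.96. Without detection calls, a probe set was called near background where it lay below the 40th percentile of its own array, which fell at an intensity of 15.2 to 16.2. Control 43 stood apart from the other untreated arrays, with correlations of 0.945 and 0.959 to them across probe sets, and was most like model 21 (r = 0.985). Model 22 did not stand apart in this way and correlated at 0.982 and 0.986 with the other model arrays. Its 3' to 5' ratio, a sign of RNA degradation where it is high, was 5.19 for Actb and 1.14 for Gapdh, within the 9-array ranges of 5.07 to 7.84 and 1.10 to 1.39. For Actb this was near the low end, and control 43 had the highest ratio, at 7.84, with 1.30 for Gapdh. Whether RNA quality bears on the differences was not tested. Of 8 uterine genes on the array, the oestrogen receptor gene Esr1 and Wnt4 did not pass the filter on dim probe sets, and the other 6, among them the progesterone receptor gene Pgr, did.

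Prf1, encoding perforin, had intensities of 24, 15.7 and 23.8 in treatment arrays, 24.1, 67.9 and 49.0 in model arrays and 21.0, 20.4 and 21.5 in controls. All 3 model arrays lay above all 3 controls and all 3 treatment arrays, although model 21 did so by little. Gzmm, encoding a granzyme found mainly in natural killer cells, had 20.9, 21.7 and 18.0 in treatment arrays, 19.7, 35.8 and 26.4 in model arrays and 20.5, 15.4 and 16.3 in controls. The high values were those of models 22 and 23, and model 21 overlapped the other groups. Nkg7, a granule membrane protein gene of natural killer and cytotoxic T cells, had 14.6, 10.6 and 12.4 in treatment arrays, 14.4, 38.2 and 22.9 in model arrays and 14.2, 12.1 and 15.3 in controls. Only models 22 and 23 reached the filter threshold for Nkg7, so it was not tested.

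Gzmb encodes granzyme B, the protease that triggers apoptosis of target cells. Its brightest probe set had 11.7, 11.2 and 8.89 in treatment arrays, 12.9, 29.8 and 13.0 in model arrays and 17.3, 14.0 and 12.9 in controls. Model 22 and control 41 alone reached the filter threshold, and the gene was not tested. A second Gzmb probe set ran from 2.99 to 4.57 over the 9 arrays, again with model 22 highest. The remaining one, which the annotation assigns to Gzmb and a numbered locus together, ran from 2.82 to 3.48 and could not be told apart between those genes.

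Klrd1, encoding CD94, the partner chain of inhibitory and activating natural killer receptors, had intensities of 9.74, 6.22 and 10.3 in treatment arrays, 9.61, 36.2 and 21.1 in model arrays and 7.81, 6.66 and 7.61 in controls. The model arrays lay above all controls, but only models 22 and 23 reached the threshold, so no test was made. Cd3g, a chain of the T cell receptor complex, had 14.6, 11.9 and 18.2 in treatment arrays, 11.5, 77.8 and 14.1 in model arrays and 15.5, 13.3 and 13.7 in controls. Here model 22 stood alone, and model 23 lay among the controls.

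Cd8a encodes the CD8 alpha chain, which in the rat is carried by many natural killer cells as well as by cytotoxic T cells. Its tested probe set had 32.6, 13.2 and 17.0 in treatment arrays, 27.0, 52.5 and 32.8 in model arrays and 37.9, 18.5 and 21.0 in controls. All 3 groups overlapped. A second probe set of Cd8a passed the filter and was highest in control 41, at 32.6, with 31.7 in model 22, and the last, below the filter, ran from 10.2 to 16.6. The probe sets of Cd8a that passed thus did not place the same array highest.

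Il2rb, the beta chain shared by the IL2 and IL15 receptors, had intensities of 14.7, 13.5 and 16.9 in treatment arrays, 16.7, 38.3 and 23.9 in model arrays and 15.8, 10.7 and 11.9 in controls. Model arrays lay above all controls, while model 21 was below treatment 33. Il2rb passed the filter in all 3 model arrays and in 2 others, so it was tested only through the model group, in which it was high. Its differences below are therefore given as a description. Il2rg, the common gamma chain, had 27.9, 12.3 and 23.2 in treatment arrays, 20.9, 54.3 and 31.8 in model arrays and 24.7, 17.2 and 53.9 in controls. Control 43 nearly equalled model 22, and the groups overlapped. Ccl5, encoding a chemokine made by activated T cells and natural killer cells that draws further leukocytes, was the brightest member, with 62.1, 31.2 and 56.2 in treatment arrays, 63.4, 314 and 129 in model arrays and 56.7, 49.4 and 63.5 in controls. Models 22 and 23 stood above the other 7 arrays, and every model array lay above every treatment array.

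**Figure D1:**
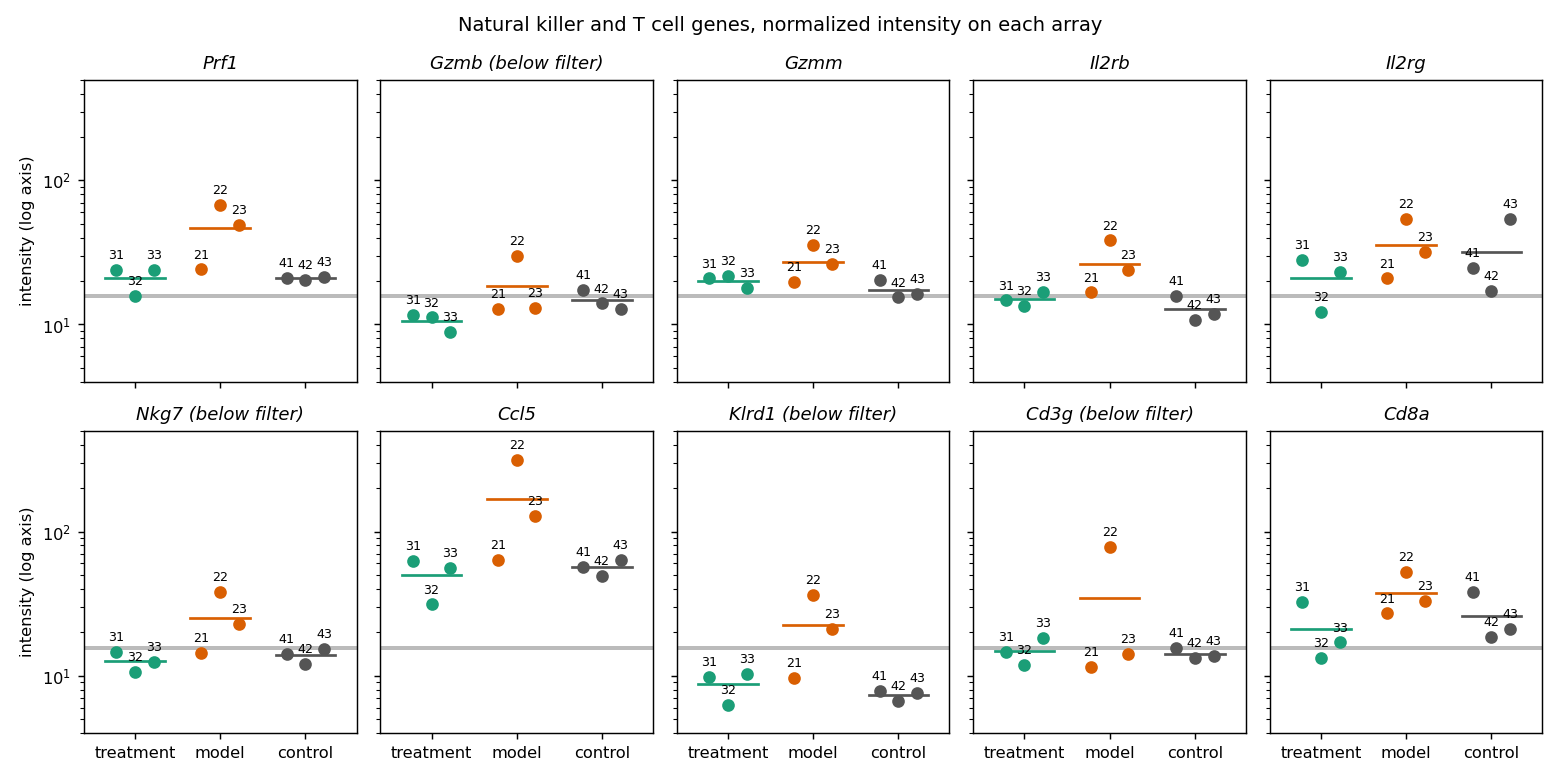
Normalized intensity (log axis) of the brightest probe set with 1 symbol of each of the 10 genes, with points for arrays, array numbers above them and lines for the mean of 3 arrays in treatment, model and control groups. The grey band marks the range of the arrays' 40th percentiles, 15.2 to 16.2, and model 22 is the highest point in all 10 panels, from 29.8 for Gzmb to 314 for Ccl5.

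Model 22 was the highest of the 9 arrays for 12 of the 14 probe sets and for the brightest probe set of all 10 genes. Among all genes tested it was highest for 12.7%, and of the 6 tested members for 6. It reached at least 2 times the median of the other 8 arrays for 5 of the 6 tested members, against 1.9% of all tested genes. Il2rb, at 2.51 times and tested only through its model arrays, is in both counts of tested members and gives them no support. The ratio of model 22 to that median was 5.59 for Cd3g, 5.29 for Ccl5, 4.15 for Klrd1, 3.0 for Prf1 and 1.78 for Gzmm. Treatment 32 was the lowest of the 9 arrays for 4 of the 6 tested members, against 15.9% of all tested genes. Across the 9 arrays the 45 pairs of members had a median Pearson r of 0.809 (0.428 to 0.992), as a description over arrays that share model 22. Without model 22 the median was 0.470 (-0.251 to 0.984, 8 arrays).

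Promoter sequences are shown for the 4 genes in which model 22 stood furthest above the other arrays among the 7 that had an entry in the RefSeq promoter table (GRCr8). Ccl5, Klrd1 and Il2rb were not in that table. Each run holds 300 bases around the gene's start, 5′ to 3′ on the gene's strand. Capitals mark matches, on either strand, to 3 short core motifs of factor families at work in lymphocytes: TGTGGT (Runx), TCACAC (T-box) and AGGAAG (Ets). The Prf1 run lies at chr20:29788790-29789089 on the plus strand, that of Gzmb at chr15:34462420-34462719 on the minus strand, that of Nkg7 at chr1:102981247-102981546 on the plus strand and that of Cd3g at chr8:54183869-54184168 on the minus strand.
Prf1: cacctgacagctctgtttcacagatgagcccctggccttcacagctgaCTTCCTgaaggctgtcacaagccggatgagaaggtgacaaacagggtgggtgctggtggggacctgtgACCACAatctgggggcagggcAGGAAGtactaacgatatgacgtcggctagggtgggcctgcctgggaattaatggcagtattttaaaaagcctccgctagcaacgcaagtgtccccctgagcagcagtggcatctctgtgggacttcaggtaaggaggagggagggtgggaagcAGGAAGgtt
Gzmb: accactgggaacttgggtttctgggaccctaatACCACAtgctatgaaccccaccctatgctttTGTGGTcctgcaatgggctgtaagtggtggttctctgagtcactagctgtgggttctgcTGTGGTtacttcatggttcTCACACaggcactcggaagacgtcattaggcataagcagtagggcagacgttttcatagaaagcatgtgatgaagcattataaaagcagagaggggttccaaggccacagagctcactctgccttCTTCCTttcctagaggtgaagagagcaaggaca
Nkg7: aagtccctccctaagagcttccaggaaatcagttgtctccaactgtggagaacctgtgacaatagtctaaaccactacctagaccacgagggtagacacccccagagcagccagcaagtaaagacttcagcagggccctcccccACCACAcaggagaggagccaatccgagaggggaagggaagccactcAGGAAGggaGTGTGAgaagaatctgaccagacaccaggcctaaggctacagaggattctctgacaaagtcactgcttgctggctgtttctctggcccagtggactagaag
Cd3g: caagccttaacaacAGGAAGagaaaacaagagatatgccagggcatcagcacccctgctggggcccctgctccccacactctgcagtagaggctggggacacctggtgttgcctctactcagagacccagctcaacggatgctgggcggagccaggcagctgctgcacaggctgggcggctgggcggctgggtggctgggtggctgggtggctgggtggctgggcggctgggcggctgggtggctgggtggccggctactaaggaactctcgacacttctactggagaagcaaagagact

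Prf1 held 4 matches, Gzmb 5, Nkg7 3 and Cd3g 1, and no match overlapped another. Gzmb and Nkg7, from the cytotoxic granule, held all 3 motifs, whereas the Cd3g run held an Ets core alone. The other granule genes did not hold all 3: Prf1 lacked the T-box core, and Gzmm, not shown, lacked the Ets core. Of the 7 members with an entry, 4 held the Runx core, 3 the T-box core and 4 the Ets core. Among all 33469 promoter runs of the table the shares were 17.3% for the Runx core, 13.7% for the T-box core and 34.5% for the Ets core. These matches describe the letters and do not show binding, and the array data hold no measure of it.

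Model rats were set against untreated controls to see how these transcripts stood after induction without acupuncture. All 6 tested members had higher means in model than in control arrays, as did 53.5% of all genes, with a median log2 fold change of 0.44 against 0.016 for all genes. None passed limma's test at a Benjamini-Hochberg adjusted p under 0.05, where 0.0273% of all genes were called. At an unadjusted p under 0.05, 4 of the 6 were higher (Il2rb, Prf1, Gzmm and Ccl5) and 0 lower, against 6.37% of all genes higher and 6.08% lower. All model arrays lay above all controls for 2 tested members, Prf1 and Il2rb, and below them for 0, against 7.79% of all genes above and 6.73% below. Il2rb, tested only through its model arrays, is in each of these counts and gives them no support.

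Prf1 averaged 5.91 ± 0.54 in model and 5.21 ± 0.02 in control arrays (log2 intensity, SD, n = 3 each), a log2 fold change of 0.70 (SE 0.23, 95% confidence interval 0.17 to 1.24, limma adjusted p = 0.326). The controls lay close together, and nearly all of the spread was among model arrays. Ccl5 averaged 7.29 ± 1.03 in model and 6.18 ± 0.14 in control arrays, a log2 fold change of 1.11 (SE 0.45, interval 0.083 to 2.14, limma adjusted p = 0.382). Il2rb averaged 5.37 ± 0.37 in model and 4.84 ± 0.13 in control arrays, a difference of 0.53 (SE 0.16, interval 0.15 to 0.91). Gzmm differed by 0.36 (SE 0.13, limma adjusted p = 0.344), Cd8a by 0.35 (SE 0.25, 0.544) and Il2rg by 0.13 (SE 0.32, 0.868).

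The sizes of these differences rested in part on model 22. Without it, Ccl5 differed by 0.57 and Prf1 by 0.47, Il2rb by 0.33, Gzmm by 0.22 and Cd8a by 0.16, and Il2rg turned to -0.12. The limma adjusted p of the genes other than Il2rb ran from 0.522 to 0.904. Without model 21 the same differences were larger, at 1.6 for Ccl5 and 1.0 for Prf1, with limma adjusted p of 0.255 and 0.140. Without control 43 they were 1.18 for Ccl5 and 0.71 for Prf1, with limma adjusted p of 0.167 and 0.122, and 0.44 for Il2rg. The 4 genes at an unadjusted p under 0.05 became 2 (Il2rb and Prf1) without model 22, control 42 or control 43. In bulk tissue, more cells of a type and more RNA per cell cannot be told apart.

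Treatment rats were likewise set against controls, a comparison that holds induction and electroacupuncture together. Of the 6 tested members, 3 had higher and 3 had lower means in treatment than in control arrays, and 42.2% of all genes were higher. The median log2 fold change was -0.084 against -0.037 for all genes. None passed limma's test, where 0.51% of all genes were called, and 0 reached an unadjusted p under 0.05, against 17.4% of all genes (6.54% higher and 10.8% lower). Groups overlapped for all 6 tested members, while 9.4% of all genes were higher and 13.9% lower without overlap. Prf1 averaged 5.21 ± 0.19 in treatment and 5.21 ± 0.02 in control arrays, and its interval ran from -0.54 to 0.54. Ccl5 averaged 6.01 ± 0.39 in treatment and 6.18 ± 0.14 in control arrays, a log2 fold change of -0.17 (SE 0.45, interval -1.20 to 0.86, limma adjusted p = 0.880). Ccl5 was lowest in treatment 32, at 31.2, and the other treatment arrays lay among the controls. Gzmm (0.12), Cd8a (-0.18) and Il2rg (-0.32) had limma adjusted p of 0.644 to 0.748. Il2rb differed by 0.11, given as a description. Among the members too dim to test, the brightest Gzmb probe set was lower in all 3 treatment arrays, at 8.89 to 11.7, than in the controls, at 12.9 to 17.3.

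Treatment was set against model to separate electroacupuncture from the induction that both groups had. All 6 tested members had lower means in treatment than in model arrays, with a median log2 fold change of -0.49 against -0.054 for all genes. Of all genes tested, 38.9% were higher in treatment arrays. Under quantile normalization that share was 51.9%, and the members' median was -0.48. None passed limma's test, nor did any of the 10973 genes (0.0% called), and 1611 genes had an unadjusted p under 0.05. At that level 3 of the 6 members were lower (Prf1, Ccl5 and Il2rb) and 0 higher, against 10.1% of all genes lower and 4.57% higher, with Il2rb again there only through its model arrays. This comparison shares its model arrays with that of model against control, so the opposite signs are not separate evidence.

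Ccl5 averaged 6.01 ± 0.39 in treatment and 7.29 ± 1.03 in model arrays (log2 intensity, SD, n = 3 each), a log2 fold change of -1.28 (SE 0.45, interval -2.31 to -0.25, limma adjusted p = 0.288). Prf1 averaged 5.21 ± 0.19 in treatment and 5.91 ± 0.54 in model arrays, a difference of -0.70 (SE 0.23, interval -1.24 to -0.17, limma adjusted p = 0.286). Il2rb differed by -0.42 (SE 0.16), given as a description. Cd8a differed by -0.54 (SE 0.25, limma adjusted p = 0.365), Il2rg by -0.45 (SE 0.32, 0.513) and Gzmm by -0.24 (SE 0.13, 0.399). Groups did not overlap for Ccl5 and Prf1 among the tested members, both lower in treatment arrays, as were 19.9% of all tested genes, with 8.1% higher. Without model 22 the difference was -0.74 for Ccl5, -0.47 for Prf1, -0.22 for Il2rb, -0.11 for Gzmm, -0.20 for Il2rg and -0.34 for Cd8a. The limma adjusted p of the genes other than Il2rb ran from 0.620 to 0.846. The 3 genes at an unadjusted p under 0.05 became 0 without treatment 32, 2 without model 22 or model 23, and 5 without model 21.

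**Figure D2:**
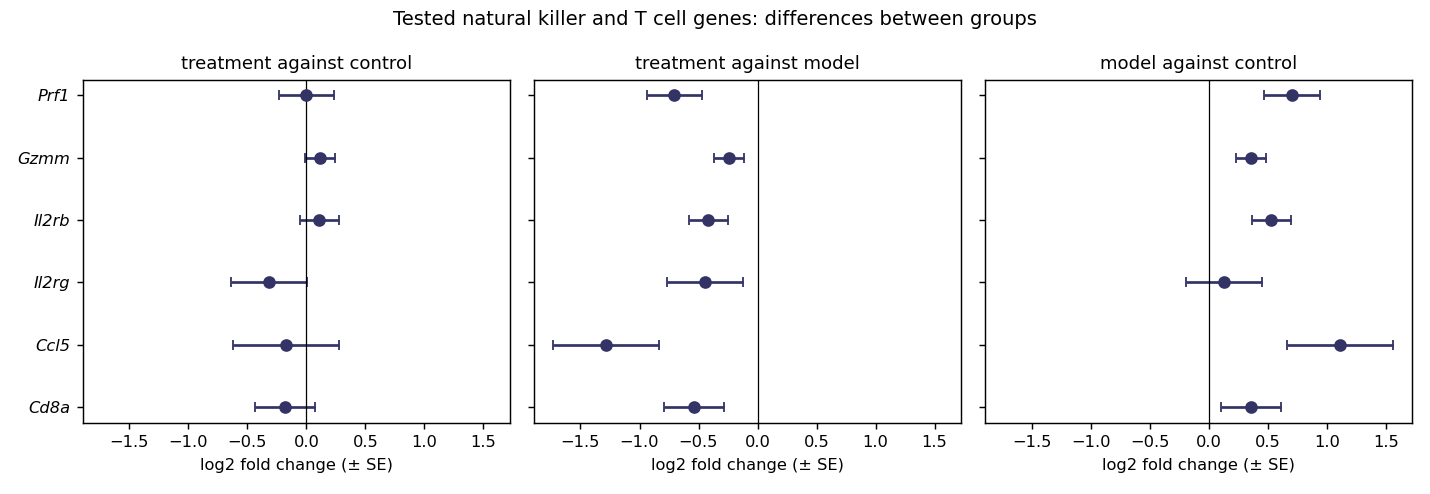
Log2 fold changes of the 6 tested genes, with points for limma's estimates and bars for ± 1 SE, in treatment against control, treatment against model and model against control. Points lie on both sides of 0 in treatment against control (-0.32 to 0.12), below 0 in treatment against model (-1.28 to -0.24) and above 0 in model against control (0.13 to 1.11).

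With the mean of both induced groups set against control, 5 of the 6 tested members were higher and 1, Il2rg, was lower, and 49.3% of all genes were higher. The median log2 fold change was 0.28 against -0.0025 for all genes. None passed limma's test, where 0.574% of all genes were called, and 0 had an unadjusted p under 0.05, against 15.3% of all genes (6.07% higher and 9.25% lower). Gzmm (0.24, SE 0.11, limma adjusted p = 0.353) came nearest, apart from Il2rb (0.32, SE 0.14), which is given as a description. Without model 21, 4 members reached an unadjusted p under 0.05, Ccl5, Gzmm, Il2rb and Prf1, all higher, 2 did without control 41, Gzmm and Il2rb, and 1 did without model 22, Il2rb. Il2rb, tested only through its model arrays, gives these counts no support.

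**Figure D3:**
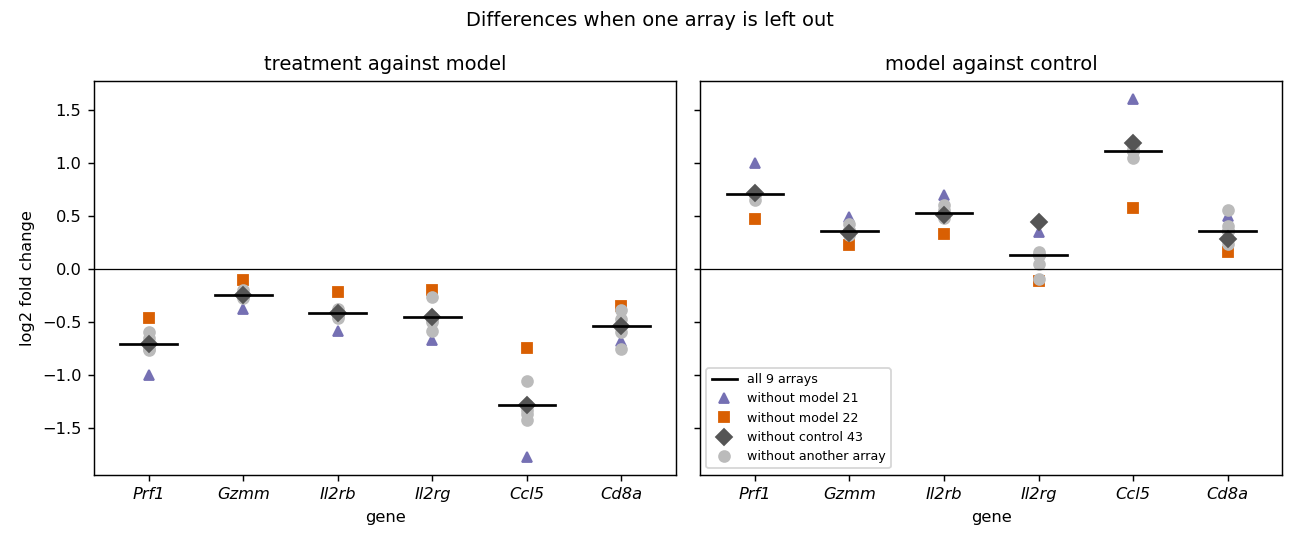
Log2 fold changes of the 6 tested genes with all 9 arrays (black lines) and with 1 array left out (points), in treatment against model and in model against control. For Ccl5, leaving out model 22 moved model against control to 0.57 and leaving out model 21 moved it to 1.6, around 1.11 with all arrays.

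Other genes of the T cell receptor complex and its signalling were highest in model 22 for 5 of the 8 tested. Of 17 such genes listed, 14 were on the array, 0 of those tested passed in any comparison and the median log2 fold change of model against control was 0.21, against 0.016 for all genes. Cd3e, another CD3 chain, had 17.6, 15.9 and 19.9 in treatment arrays, 18.0, 61.9 and 21.0 in model arrays and 14.9, 15.1 and 18.5 in controls. Model 22 was again alone, as for Cd3g, and the log2 fold change of model against control was 0.52 (SE 0.27, limma adjusted p = 0.450). The signalling chain gene Cd247 had 78.9 in model 22 and the kinase gene Lck 77.1 there, at 3.55 and 2.35 times the median of the other 8 arrays. Of 6 further genes of this list that were on the array but too dim to test, 5 were highest in model 22. The co-receptor gene Cd4, at 24.7, 23.5 and 22.6 in treatment arrays, 19.0, 21.0 and 16.4 in model arrays and 22.3, 17.1 and 18.2 in controls, did not have this pattern (log2 fold change of treatment against model 0.19, SE 0.075, limma adjusted p = 0.323). Nor did Cd6 and Zap70, at 30.6 and 47.2 in model 22, each 1.06 times the median of the other 8 arrays. Both were highest in treatment 32, at 34.1 and 50.4. Of the 8 tested genes, 4 reached 2 times that median in model 22. Lat, at 2.33 times, is in this count and in the count of genes highest in model 22. Outside the model arrays it reached the filter level only in treatment 31 and control 43. Like Il2rb it was tested only through the model group and gives these counts no support.

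Of 24 further natural killer receptor and adaptor genes, 16 were on the array and 5 were tested, and 0 passed in any comparison. Of the 11 too dim to test, 5 were highest in model 22. Hcst, the adaptor of an activating natural killer receptor, had 15.7, 11.9 and 20.7 in treatment arrays, 14.0, 86.9 and 30.3 in model arrays and 19.8, 16.7 and 18.5 in controls. Tyrobp, an adaptor that macrophages express as well, had 48.5, 30.2 and 50.5 in treatment arrays, 36.9, 144 and 89.6 in model arrays and 101, 73.6 and 41.3 in controls. For both genes models 22 and 23 were high, but for Tyrobp control 41 lay above model 23. Fcgr3a, an Fc receptor gene of natural killer cells and macrophages, had 40.6, 25.8 and 18.4 in treatment arrays, 24.4, 82.9 and 51.5 in model arrays and 145, 82.2 and 29.9 in controls. Models 22 and 23 were again the higher model arrays, but control 41 lay above both. Its model against control difference was -0.47 (SE 0.47, limma adjusted p = 0.657). The signalling chain gene Fcer1g had 404 in model 22 and 407 in control 41. Model 22 was highest for 3 of the 5 tested genes, and their summed intensity was 175 to 280 in treatment arrays, 192 to 754 in model arrays and 222 to 702 in controls. The defining natural killer receptor Ncr1, singled out after its values were seen, ran from 4.02 to 5.38 over the 9 arrays, below the filter on each. Of the 18 further cytotoxic granule genes, 10 were tested and 0 passed. Model 22 was highest for only 3 of these 10, and 0 of them reached 2 times the median of the other 8 arrays there. Among 6 granule genes too dim to test, 1 was highest in model 22. Lamp1, a lysosomal membrane protein gene, came nearest in model against control (0.40, SE 0.10, limma adjusted p = 0.249). Gzma and Ifng, the interferon gamma gene, also chosen after their values were seen, were too dim to test, at up to 4.83 and 3.48.

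Apart from the members Il2rb and Il2rg, which this list leaves out, most genes around IL2 and IL15 did not share the high value of model 22. Of 13 listed, 7 were tested and 0 passed in model against control, with a median log2 fold change of -0.054, and model 22 was highest for 1 of the 7. It was highest for 0 of the 3 too dim to test. The cytokine gene Il15 had 39.1, 22.6 and 40.2 in treatment arrays, 38.1, 52.0 and 49.6 in model arrays and 48.8, 50.2 and 57.2 in controls, and differed by -0.34 (SE 0.16, limma adjusted p = 0.361) in treatment against model. Jak1, a kinase that serves these receptors, was lower in every treatment array, at 301, 288 and 311, than in model arrays, at 374, 400 and 350, or controls, at 379, 393 and 395 (treatment against model -0.31, SE 0.080, limma adjusted p = 0.286). Stat5a, a transcription factor downstream of them, differed by -0.72 in model against control (SE 0.25, limma adjusted p = 0.331).

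Of 12 lymphocyte transcription factors, 6 were tested and 0 passed in any comparison. Among 3 too dim to test, 2 were highest in model 22. Tcf7, a factor of T cell development, had 18.0, 12.1 and 21.8 in treatment arrays, 35.4, 69.4 and 25.8 in model arrays and 70.6, 48.5 and 40.7 in controls, so that control 41 was at the level of model 22. Prdm1 differed by -0.86 in treatment against model (SE 0.23, limma adjusted p = 0.286). Of 15 genes of the lymphocyte chemokine axis, 9 were tested, 0 passed, and model 22 was highest for 7. Model 22 was highest for 1 of 3 chemokine axis genes too dim to test. Cxcl9, a ligand of the T cell chemokine receptor Cxcr3, had 26.1, 11.4 and 18.2 in treatment arrays, 27.3, 63.6 and 47.0 in model arrays and 23.6, 19.2 and 38.8 in controls, with a log2 fold change of -0.82 in treatment against model (SE 0.26, limma adjusted p = 0.286). Cxcl10, another such ligand, differed by -0.46 (SE 0.13, limma adjusted p = 0.286) there.

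Markers of leukocytes in general and most macrophage markers moved with the natural killer and T cell genes on model 22. All 7 tested genes of leukocytes in general, such as Ptprc, encoding CD45, were highest in model 22, and their summed intensity was 452 to 753 in treatment arrays, 636 to 1476 in model arrays and 751 to 765 in controls. Among 2 genes of this list too dim to test, 1 was highest in model 22. Ptprc had 24.4, 9.03 and 24.5 in treatment arrays, 12.3, 95.8 and 30.9 in model arrays and 38.9, 25.4 and 18.1 in controls. Of 7 tested macrophage genes, 6 were highest in model 22, and the sum of all 7 was 485 to 543 in treatment arrays, 274 to 1080 in model arrays and 358 to 774 in controls. The remaining one, Cd14, had 198, 350 and 168 in treatment arrays, 60.4, 122 and 152 in model arrays and 284, 283 and 89.9 in controls. Its log2 fold change was -0.81 in model against control (SE 0.47, limma adjusted p = 0.485) and 1.01 in treatment against model (SE 0.47, 0.364). The complement gene C1qb reached 168 in model 22, against 23.3 to 69.7 in the other 8 arrays. The 1 macrophage gene too dim to test was highest in model 22. The sum of the 6 tested natural killer and T cell genes was 108 to 182 in treatment arrays, 172 to 563 in model arrays and 132 to 188 in controls. None of the tested leukocyte or macrophage genes passed limma's test in any comparison, and their part in the natural killer and T cell differences was not tested.

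The 2 tested genes of neutrophils, S100a8 and S100a9, were also highest in model 22, with a sum of 142 there and 18.4 to 77.8 in the other 8 arrays. S100a8 reached the filter level only in models 22 and 23 and treatments 31 and 33. It was thus tested only through its model arrays and gives this pattern no support. Of 4 neutrophil and eosinophil genes too dim to test, 2 were highest in model 22. B cell genes (2 tested) and mast cell genes (3 tested) were not highest in model 22, which stood at 0.964 and 0.969 times the median of the other arrays. Among their dim genes, 0 of 2 and 1 of 3 were highest there. Epithelial genes were highest in controls 41 and 42, with a sum of 3373 to 5206 in treatment arrays, 2526 to 3697 in model arrays and 3371 to 16080 in controls. Smooth muscle genes summed to 17370 to 21490 in treatment arrays, 18430 to 21920 in model arrays and 11100 to 18020 in controls. For these structural lists model 22, at 2909 and 19910, lay within the range of the other model arrays.

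**Figure D4:**
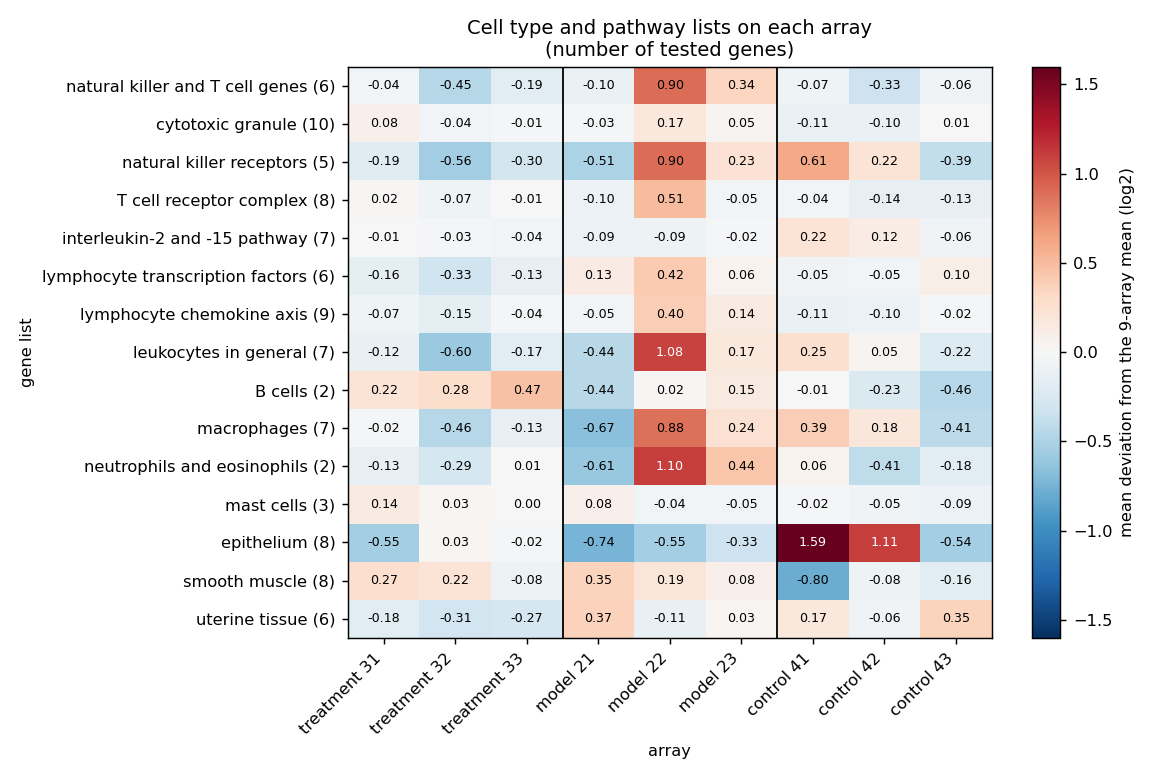
Mean deviation of each gene list from its mean over the 9 arrays (log2, red higher and blue lower), by array, with the number of tested genes in brackets. Model 22 stands at 0.90 for the natural killer and T cell genes, 1.08 for leukocytes in general and 0.88 for macrophages, and at -0.55 for epithelium.

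The genes whose values over the 9 arrays were most like those of a tested member were found by Pearson correlation, as a description of arrays that share model 22. Ltb, encoding lymphotoxin beta, was nearest to Il2rb (r = 0.994, and 0.984 without model 22) and among the nearest 3 to Prf1 and Gzmm, with 20.3, 16 and 21.2 in treatment arrays, 22.5, 60.7 and 31.6 in model arrays and 20.9, 13.9 and 16 in controls. Prf1 was nearest to Ciao2b (0.957), Gzmm to Utp4 (0.981) and Ccl5 to Serping1, the C1 inhibitor gene (0.969). Cd8a was nearest to RT1-Ba, an MHC class II chain gene (0.926), which had 858 in model 22 and 311 in model 23. Il2rg was nearest to Ackr1, an atypical chemokine receptor gene (0.966), and both had control 43 beside model 22 at the top, with 158 and 154 for Ackr1.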

How the data were processed

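Uterine RNA was hybridised to Affymetrix rat arrays, per the labels. The deposited values are normalized intensities on a linear scale, and MAS5 is named in the submitters' processing notes. Neither its settings nor detection calls were given, so the background level is unknown. The number of arrays limits the precision. Of 31099 probe sets, 57 controls were left out. The platform annotation gave 1 symbol for 20826, several for 436 and none for 9780, and symbols of 20758 were updated through the RefSeq gene table (GRCr8).

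Values were taken as log2(intensity + 16), the scale of all log2 values, which understates changes of dim genes. Probe sets at or above the 40th percentile of their array in at least 3 of 9 arrays were kept (19326), and the brightest of a gene stood for it (10973 genes). All comparisons are contrasts of 1 limma 3.58.1 fit in R 4.3.3 (lmFit and two-sided eBayes with trend, on 6 residual degrees of freedom, Benjamini-Hochberg over all genes). Group values are mean ± SD of 3 arrays. The labels do not say that arrays of a group came from separate animals, so p-values measure only the spread between these arrays. The fit was tested on simulated data with separate noise for each gene, which cannot stand for an array that shifts many genes together. The members and lists were chosen with earlier results of these data known. Each member was named with all its probe sets, of each other list up to 4 genes with the smallest p, and for each tested member its 3 most correlated genes, without numbered loci. Promoters were chosen after the values were seen, and proteins were not used here. Plots used matplotlib 3.10.9 (Python 3.11.15). Alternatives were 1 or 64 added before log2, other normalizations, filters, variance trends and probe set rules, the compared arrays alone, a replicate block, a threshold of 0.1 and each array left out.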

Additional observations from a re-analysis of the deposited data

Results flagged for a closer look

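Among the 6 arrays of induced rats, which pool the treatment and model groups, model 22 lay far from the others for 3 of the 13 member probe sets with 1 symbol. The share of the log2 range taken by its gap to the next array was 0.822 for Cd3g, 0.752 for the brightest probe set of Gzmb and 0.634 for a second one of Gzmb. Chance flags about 1 in 20 such groups. The second Gzmb probe set ran only from 2.99 to 4.57.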

How the results depend on the processing

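In all 4 comparisons, 0 member genes passed limma's test at an adjusted p under 0.05 with all arrays and under each alternative, including a threshold of 0.1 and each array left out. A count that stays at 0 does not show stability, and leaving out an array gave Ccl5 values of 0.57 to 1.6 in model against control. The lowest adjusted p of any member under any of them was 0.119, for Il2rb in model against control without control 43. Il2rb was tested only through its model arrays, and Prf1 had 0.122 in the same limma fit. Of 478 recomputed log2 fold changes of the 6 tested members, 15 changed sign, 12 of them on leaving out an array, and none of these values was called. Prf1 in treatment against control, at 6.66e-05, turned to -0.010 with 1 added before log2, to -0.015 under quantile normalization and to -0.010 under median centring, and ran from -0.057 to 0.11 on leaving out an array. On leaving out an array, Il2rg ran from -0.12 to 0.44 in model against control and from -0.32 to 0.22 in both induced groups against control, Cd8a from -0.40 to 0.014 in treatment against control and from -0.038 to 0.28 in both induced groups against control, and Ccl5 from -0.31 to 0.055 in treatment against control. With 1 or 64 added before log2, model against control was 1.01 or 0.37 for Prf1, so the sizes for dim genes depend on the added number. The filter at the 60th percentile left Ccl5 alone, and without a filter all 10 genes were tested and 0 passed. The last digit of the array number was used as a replicate block, which left 0 members called in each comparison; arrays with the same digit had correlations of their deviations from the group means of -0.41 to 0.31, so these digits were not taken as pairs. Over all genes, leaving out an array gave 0 to 1372 in model against control (3 with all arrays), 0 to 716 in treatment against control (56), 3 to 1237 in both induced groups against control (63) and 0 to 3 in treatment against model (0), with the highest of the first 3 ranges without control 43. The replicate block gave 27 in treatment against control and 32 in both induced groups against control, and quantile normalization turned the split in treatment against control to 27 higher and 28 lower, beside 19 and 37. Fitting only the arrays compared could not be varied for both induced groups, which use all 9. Of the 10 members, 4 lay below the filter, and dim values limit the differences of the others.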
